A study of Mus musculus with 9 samples.

Results

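The ERK feedback genes described here are 10 mouse genes, the Sprouty genes Spry1, Spry2 and Spry4, the SPRED genes Spred1 and Spred2, the MAP kinase phosphatase genes Dusp4, Dusp5 and Dusp6, and the PEA3 transcription factor genes Etv4 and Etv5. They were found by gene symbol among the 55274 gene identifiers of the expression tables, and all 10 were measured. RNA was sequenced from mouse bone marrow cells that carried the oncogenic RAS mutant NRASG12D, the leukaemia fusion NUP98-NSD1, or both together. Each of the 3 groups had 3 libraries, read as paired ends of 50 bases. Levels are FPKM, which scale the fragments of a gene by its transcript length and by the mapped fragments of the library, as computed with Cufflinks by the authors.

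ERK is the last kinase of the RAS, RAF, MEK and ERK cascade, and among the genes it induces are several whose products restrain the cascade again. Sprouty and SPRED proteins act on the step between RAS and RAF, and the phosphatases DUSP4, DUSP5 and DUSP6 remove phosphate from ERK itself, DUSP4 and DUSP5 in the nucleus and DUSP6 in the cytoplasm. ETV4 and ETV5 are ETS family transcription factors that are themselves induced by the pathway, and the whole set is widely used as a readout of ERK output.

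The donor animals of all 3 groups were C57BL/6J female mice of 6 to 8 weeks that received 5-fluorouracil at 150 mg/kg, and marrow was taken after 4 days. The cells were stimulated for 48 hours with human IL-6 at 10 ng/mL, mouse IL-3 at 6 ng/mL and mouse SCF at 20 ng/mL. NUP98-NSD1 was delivered in a retroviral MSCV vector with GFP and NRASG12D in an MSCV vector with BFP, so that the vector and not the native gene drove each, and cells were sorted by fluorochrome and expanded. No untransduced or empty-vector group was among the libraries, so the group with NUP98-NSD1 alone was the only one without NRASG12D. Nothing in the labels says whether replicates were separate animals or separate cultures, and the p-values therefore measure the spread between libraries, which may be technical.

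The depth was not given and was estimated from the spacing of the lowest FPKM values, which gave about 22500000 to 35400000 fragments per library. Nras, the mouse gene matching the introduced mutant, had 354, 479 and 348 FPKM in NRASG12D, 50.3, 47.7 and 51.2 FPKM in NUP98-NSD1, and 245, 262 and 701 FPKM in NUP98-NSD1+NRASG12D. All 6 libraries with NRASG12D lay above the 3 without it, and replicate 3 of the combined group stood far above the other 5. The mean level of Nup98 was 10.3 ± 1.07, 18.6 ± 0.399 and 15.9 ± 4.16 FPKM (SD, n = 3) in NRASG12D, NUP98-NSD1 and the combined group, and that of Nsd1 was 13.0 ± 1.52, 14.2 ± 3.00 and 13.3 ± 3.13 FPKM.

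The groups differed widely in cell type markers, and the study itself describes the NRASG12D cultures as mostly mast cells. Of 10 mast cell markers, 9 reached 1 FPKM in each NRASG12D library, and their summed level was 36190, 38297 and 37489 FPKM, with Cma1 the most abundant. Cpa3 was listed at 0 in all 3, for a reason that the FPKM values used here do not show, so its values there are in doubt. In NUP98-NSD1 all 10 reached 1 FPKM, with sums of 29111, 29223 and 35328 FPKM and Cpa3 the most abundant. In NUP98-NSD1+NRASG12D all 10 again reached 1 FPKM, but the sums were 1025, 4713 and 784 FPKM, again with Cpa3 the most abundant. Without Cpa3 the sums were 15698, 16659 and 20949 FPKM in NUP98-NSD1 and 672, 2892 and 505 FPKM in the combined group. The sums of the 3 groups did not overlap with or without Cpa3.

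Markers of the granulocyte and monocyte lineage, 10 genes, ran differently. They summed to 27.8, 37.1 and 27.2 FPKM in NRASG12D, with 1, 7 and 1 of 10 at 1 FPKM or more, and Ctsg the most abundant in each. Mpo, Elane, S100a8, S100a9 and Csf3r were listed at 0 in replicate 1, and S100a9 and Csf3r in replicate 3. The sums were 6454, 6164 and 1923 FPKM in NUP98-NSD1, led by Mpo, and 15904, 8452 and 20781 FPKM in the combined group, led by Mpo in replicate 1 and S100a8 in the other two. The 6 macrophage markers summed to 44.9, 51.1 and 39.9 FPKM in NRASG12D, 217, 176 and 164 FPKM in NUP98-NSD1, and 234, 2085 and 750 FPKM in the combined group, with Cd68 the most abundant in all 9 libraries. C1qa and C1qb were listed at 0 in replicates 1 and 3 of NRASG12D, and C1qc also in replicate 3. Of 12 markers of other cells a marrow culture could hold, Itga2b led in NRASG12D and NUP98-NSD1, with sums of 596, 667 and 602 and of 311, 320 and 387 FPKM. The means in these groups were 510 and 230 FPKM for Itga2b, and 109 and 68.5 FPKM for Gata1. Pf4 (1.56 and 28.3 FPKM), Klf1 (0.372 and 1.87 FPKM) and Hba-a1 (0.301 and 10.5 FPKM) went the other way. The sums therefore do not stand for a single cell type. Pf4 led in the combined group, where the sums were 81.8, 1229 and 118 FPKM, and the T cell marker Cd3e was listed at 0 in 6 of 9 libraries. In bulk RNA, fewer cells of a type and less RNA per cell cannot be told apart, and the part of these cell type differences in the results on the feedback genes was not tested.

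A gene had to reach 1 FPKM in 3 or more of the 9 libraries to enter the test, limma on log2(FPKM + 1). This left 13493 genes, among them 9 of the 10 feedback genes. Spry1 was below that filter. A gene is called where its Benjamini-Hochberg adjusted p over all genes tested was under 0.05, and log2 fold changes are the group named before "against" minus the group named after it. The 3 pairwise comparisons share libraries with each other, so their values are given side by side and not as independent results.

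NRASG12D against NUP98-NSD1 asks how the feedback genes stand when the RAS mutant replaces the fusion. In it 6 of the 9 tested feedback genes were called, 5 higher (Spry4, Spred1, Dusp4, Dusp6 and Etv5) and 1 lower (Dusp5). Over all genes tested 52.1% were called, 9.98% higher and 42.2% lower. For 7 of the 10 feedback genes, and 6 of the 9 tested, the ranges of the groups were apart, as they were for 64.2% of all genes tested. The median log2 fold change was 0.70 over the 9 feedback genes and -0.27 over all genes tested. Median-ratio scaling moved the median of all genes to -0.01 and quantile normalization to 0.07, and the calls of all genes then split into 2950 higher and 3231 lower, and into 3447 higher and 2619 lower, against 1347 higher and 5689 lower without scaling. The split of the feedback genes was 5 higher and 1 lower under both. With all 9 libraries 3 were called, Spry4 and Spred1 higher and Dusp5 lower, where 22.7% of all genes tested were called. With no filter 4 were higher and 2 lower of 10, where 11.8% of 41853 genes were called, with Spry1 called lower and Spry4 no longer called.

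NUP98-NSD1+NRASG12D against NUP98-NSD1 asks what the RAS mutant adds to the fusion. By limma, 0 of the 9 tested feedback genes were called, and 5 had an unadjusted p under 0.05. Over all genes tested 8.61% were called, 2.30% higher and 6.31% lower, and 24.6% had an unadjusted p under 0.05. For 6 of the 10 feedback genes, and 5 of the 9 tested, the ranges of the groups were apart, with Spry1 and Spry2 higher and Spry4, Spred1, Dusp4 and Dusp5 lower in the combined group, against 31.4% of all genes tested with ranges apart. The median log2 fold change was -0.21 over the 9 and -0.06 over all genes tested. With array weights, which give less weight to a library far from its group, 5 were called (Spry2 higher, and Spry4, Spred1, Dusp4 and Dusp5 lower), where 25.9% of all genes tested were called. With the spread taken from all 9 libraries 4 were called, the same genes without Spry2, and 16.7% of all genes tested. Without replicate 1 of the combined group Dusp5 was called, with 18.6% of all genes tested, and without replicate 2 Spred1 and Dusp4 were called, with 7.99%.

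NUP98-NSD1+NRASG12D against NRASG12D asks what the fusion adds to the RAS mutant. In it 5 of the 9 tested feedback genes were called, with Spry2 higher and Spry4, Spred1, Dusp4 and Etv5 lower. The shares over all genes tested were 38.3% called, 24.2% higher and 14.1% lower. The ranges were apart for 6 of the 10 feedback genes, for 5 of the 9 tested, and for 58.6% of all genes tested. The median log2 fold change was -0.40 over the 9 and 0.23 over all genes tested, and the latter moved to 0.06 with median-ratio scaling and to -0.05 with quantile normalization. The calls of all genes were 3266 higher and 1907 lower without scaling, 2773 higher and 2449 lower with median-ratio scaling, and 2155 higher and 3064 lower with quantile normalization. The 4 feedback genes called lower were also called under both scalings, and Spry2 was not. With no filter 3 were called, Spry1 higher and Spry4 and Spred1 lower, with 9.25% of 41853 genes. Also 3 were called without replicate 1, 2 or 3 of NRASG12D and without replicate 3 of the combined group, where Spry2 and Etv5 dropped out and 22.7%, 23.4%, 21.8% and 31.2% of all genes tested were called.

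Both groups with NRASG12D were also set together against NUP98-NSD1 in a fit of all 9 libraries. By limma, 0 of the 9 feedback genes were called and 1, Dusp5, had an unadjusted p under 0.05. Over all genes tested 1.11% were called, 0.0593% higher and 1.05% lower, and 18.2% had an unadjusted p under 0.05. Dusp5 was the single feedback gene whose 6 libraries with NRASG12D all lay on the same side of the 3 without it, below them. The other 8 had log2 fold changes between -0.27 (Dusp4) and 0.50 (Dusp6), with adjusted p between 0.397 and 0.968. The contrast averages both groups with NRASG12D, so a value near 0 can hold opposite differences. Against NUP98-NSD1, Spred1 gave 1.53 in NRASG12D and -1.37 in the combined group, Spry4 1.00 and -0.89, and Dusp4 1.25 and -1.79. Dusp6 had the same direction in both, at 0.70 and 0.30. Of all genes tested, 0.356% had all 6 above and 3.63% all 6 below. The median log2 fold change was 0.06 over the 9 feedback genes and -0.19 over all genes tested, which moved to -0.01 with median-ratio scaling and 0.01 with quantile normalization. The calls of all genes were 8 higher and 142 lower without scaling, 9 higher and 58 lower with the former, and 40 higher and 72 lower with the latter. With array weights 3 were called, Dusp5 at -1.23, Dusp6 at 0.89 and Etv5 at 0.47, where 46.5% of all genes tested were called. Without replicate 1 of the combined group Dusp5 (-1.39) and Etv5 (0.52) were called, with 3637 of all 13493 genes tested, and without its replicate 2 Dusp5 (-1.08), with 2.62%.

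**Figure D1:**
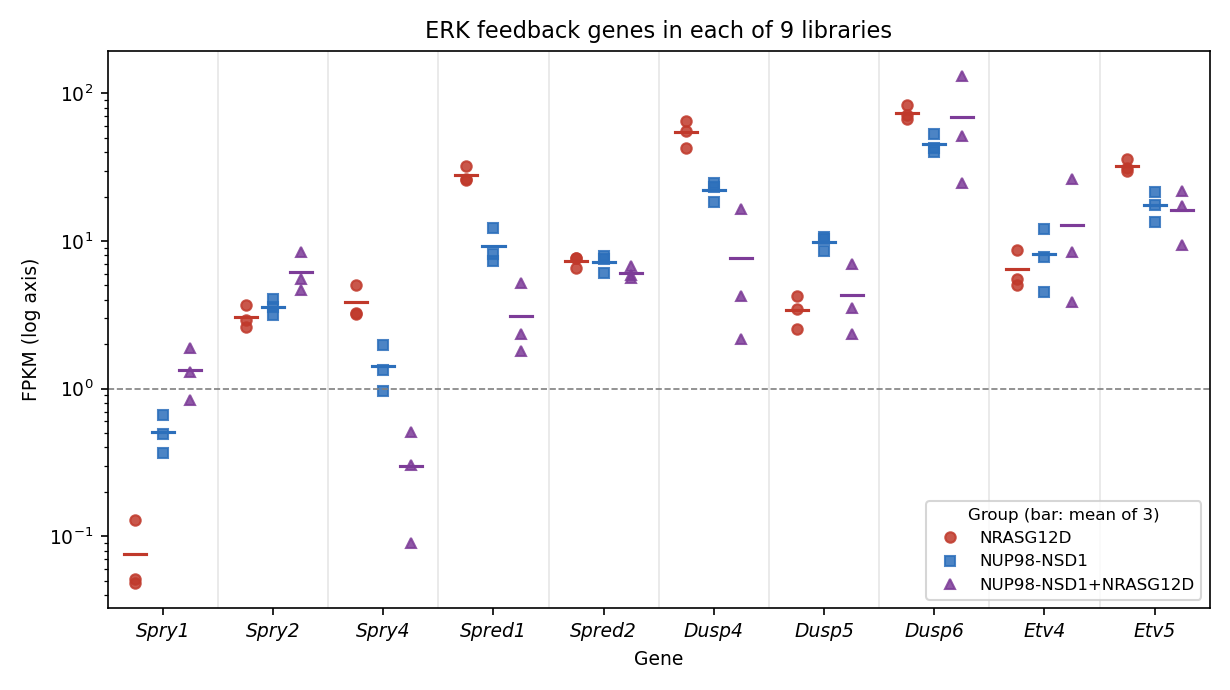
FPKM of the 10 ERK feedback genes in each of 9 libraries on a log axis, with 1 point per library, a bar at the mean of 3, and a dashed line at 1 FPKM. Spry4, Spred1 and Dusp4 stand highest in NRASG12D and lowest in NUP98-NSD1+NRASG12D, Spry1 in the reverse order, and Dusp5 is highest in NUP98-NSD1.

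Spry1 encodes a Sprouty protein and lies on chromosome 3 of GRCm38 (ENSMUSG00000037211.12, 37639947 to 37644598, plus strand). Its level was 0.0518, 0.0487 and 0.129 FPKM in NRASG12D, 0.493, 0.667 and 0.366 FPKM in NUP98-NSD1, and 1.88, 0.842 and 1.29 FPKM in NUP98-NSD1+NRASG12D. The 3 groups did not overlap, with NRASG12D lowest and the combined group highest. At the estimated depth the NRASG12D values stand for about 3.46, 4.78 and 8.07 fragments, where 3 fragments correspond to 0.0449, 0.0306 and 0.0481 FPKM. Spry1 was tested where no filter was set, over 41853 genes. The log2 fold change was -0.48 (95% confidence interval -0.75 to -0.21, adjusted p = 0.0475) for NRASG12D against NUP98-NSD1, lower in 3 of 3 libraries. It was 1.09 (0.59 to 1.60, adjusted p = 0.0353) for the combined group against NRASG12D, and 0.61 (0.08 to 1.14, adjusted p = 0.355) for the combined group against NUP98-NSD1. A stretch of Spry1 is shared with Gm42922 on the opposite strand, 21.8% of its 50-base stretches, and Gm42922 had between 0 and 0.0709 FPKM.

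Spry2, which encodes another Sprouty protein, is on chromosome 14 (ENSMUSG00000022114.5, 105891947 to 105896819, minus strand). It had 2.60, 3.71 and 2.92 FPKM in NRASG12D, 3.17, 3.59 and 4.05 FPKM in NUP98-NSD1, and 4.68, 5.56 and 8.38 FPKM in the combined group. The former pair of groups overlapped, and the 3 libraries of the combined group lay above the other 6. The difference between NRASG12D and NUP98-NSD1 was -0.18 on the log2 scale (-0.52 to 0.16, adjusted p = 0.323), a sign that turned to 0.05 with median-ratio scaling and 0.17 with quantile normalization. Spry2 rose in the combined group against NRASG12D by 0.80 (SE 0.23, 0.24 to 1.35, adjusted p = 0.0346), from a mean of 3.07 ± 0.572 to 6.21 ± 1.93 FPKM (SD, n = 3). That call was lost with no filter (adjusted p = 0.106), with median-ratio scaling (0.65, adjusted p = 0.0902) and with quantile normalization (0.54, adjusted p = 0.121). It was also lost without replicate 1, 2 or 3 of NRASG12D (adjusted p = 0.121, 0.0639 and 0.115) and without replicate 3 of the combined group (adjusted p = 0.0673), and over the 13 alternatives the adjusted p ran from 0.00801 to 0.121. Against NUP98-NSD1 the value was 0.62 (0.08 to 1.16, not called), and 0.87 with array weights (adjusted p = 0.0160, and 0.0160 to 0.379 over 13 alternatives).

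Spry4, a Sprouty gene on chromosome 18 (ENSMUSG00000024427.7, 38586247 to 38601415, minus strand), had the opposite order. Its level was 3.25, 3.20 and 5.06 FPKM in NRASG12D, 0.958, 1.33 and 1.98 FPKM in NUP98-NSD1, and 0.302, 0.511 and 0.0908 FPKM in the combined group. The 3 groups stood apart, in the order of the mast cell marker sums without Cpa3. These levels in the combined group stand for about 40.3, 59.0 and 9.85 fragments. Spry4 was higher in NRASG12D than in NUP98-NSD1 by 1.00 on the log2 scale (SE 0.21, adjusted p = 0.00786), with all 3 libraries above the other 3, and with no filter the adjusted p was 0.0504, the highest of 13 alternatives, of which 0.00117 was the lowest. The log2 fold change was -1.88 for the combined group against NRASG12D (SE 0.22, -2.41 to -1.36, adjusted p = 0.000975), with a mean of 0.301 ± 0.210 against 3.83 ± 1.06 FPKM (SD, n = 3), 12.7 times higher in NRASG12D. With a pseudocount of 0.1 in place of 1 that log2 fold change was -3.42. Against NUP98-NSD1 the value was -0.89 (-1.40 to -0.37, adjusted p = 0.0533), lower in 3 of 3 libraries, and it passed with array weights (adjusted p = 0.0239) and with all 9 libraries (adjusted p = 0.0275), in a range from 0.0239 to 0.227 over 13 alternatives. It was -2.02 with a pseudocount of 0.1.

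Spred1, the SPRED protein that is mutated in Legius syndrome and brings neurofibromin to the membrane, lies on chromosome 2 (ENSMUSG00000027351.14, 117121374 to 117182279, plus strand). It had 26.2, 25.9 and 32.0 FPKM in NRASG12D, 7.30, 8.12 and 12.3 FPKM in NUP98-NSD1, and 1.80, 5.20 and 2.35 FPKM in the combined group. No library of a group reached into the range of another, and in the combined group replicate 2, the one with the highest mast cell marker sum, was also the highest. That library had the highest macrophage marker sum as well. In NUP98-NSD1 replicate 3 was highest in Spred1 and in mast cell markers, while in NRASG12D replicate 2 had the highest mast cell marker sum and the lowest Spred1. Spred1 was higher in NRASG12D than in NUP98-NSD1 by 1.53 on the log2 scale (SE 0.19, 1.08 to 1.97, adjusted p = 0.00137), 3.03 times in mean FPKM, the largest rise among the 9 tested feedback genes in that comparison. The log2 fold change of the combined group against NRASG12D was -2.90 (SE 0.31, -3.62 to -2.18, adjusted p = 0.000621), with a mean of 3.12 ± 1.83 FPKM (SD, n = 3) in the combined group. Against NUP98-NSD1 it was -1.37 (-2.18 to -0.56, adjusted p = 0.0547). That value passed with array weights (adjusted p = 0.0131), with all 9 libraries (adjusted p = 0.0157) and, at -1.71, without replicate 2 of the combined group (adjusted p = 0.0190), in a range from 0.0131 to 0.254 over 13 alternatives.

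Spred2, the closest relative of Spred1, lies on chromosome 11 (ENSMUSG00000045671.17, 19924375 to 20024026, plus strand). It had 6.59, 7.64 and 7.72 FPKM in NRASG12D, 6.09, 7.58 and 7.96 FPKM in NUP98-NSD1, and 5.64, 5.86 and 6.75 FPKM in the combined group. All 3 groups overlapped, and the 9 values had the narrowest span of the 10 genes in the ratio of the highest to the lowest library. Its log2 fold changes were 0.02 (-0.28 to 0.32, adjusted p = 0.892) for NRASG12D against NUP98-NSD1, -0.21 (-0.62 to 0.20, adjusted p = 0.542) for the combined group against NUP98-NSD1 and -0.23 (-0.60 to 0.14, adjusted p = 0.272) against NRASG12D.

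Dusp4 encodes a nuclear phosphatase of ERK and lies on chromosome 8 (ENSMUSG00000031530.6, 34807297 to 34819894, plus strand). Its level was 42.9, 64.6 and 55.6 FPKM in NRASG12D, 18.4, 24.8 and 23.4 FPKM in NUP98-NSD1, and 2.18, 16.5 and 4.26 FPKM in the combined group. The groups did not overlap, and replicate 2 of the combined group stood near the lowest NUP98-NSD1 library while the other two stood far below. Dusp4 was higher in NRASG12D than in NUP98-NSD1 by 1.25 on the log2 scale (SE 0.17, 0.84 to 1.65, adjusted p = 0.00191), 2.45 times in mean FPKM, and with all 9 libraries the adjusted p was 0.101, in a range from 0.000888 over 13 alternatives. Against NRASG12D the combined group gave -3.04 (SE 0.58, -4.41 to -1.67, adjusted p = 0.00701), with means of 7.64 ± 7.73 and 54.4 ± 10.9 FPKM (SD, n = 3), and with no filter the adjusted p was 0.0577, in a range from 0.000471. With a library left out the value ran from -3.74 to -2.51. Against NUP98-NSD1 it was -1.79 (-3.17 to -0.42, adjusted p = 0.110), lower in 3 of 3 libraries. Without replicate 2 of the combined group that value was -2.49 (adjusted p = 0.00746), and without its replicate 1 it was -1.26 (adjusted p = 0.131). The value passed without replicate 2, with array weights (adjusted p = 0.0147) and with all 9 libraries (adjusted p = 0.0452), in a range from 0.00746 to 0.428.

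Dusp5 encodes another nuclear phosphatase, specific for ERK, on chromosome 19 (ENSMUSG00000034765.6, 53529109 to 53542431, plus strand). It had 2.55, 3.48 and 4.25 FPKM in NRASG12D, 10.4, 8.56 and 10.7 FPKM in NUP98-NSD1, and 6.98, 2.35 and 3.54 FPKM in the combined group. The 3 libraries without NRASG12D lay above all 6 with it, and the combined group overlapped NRASG12D. Dusp5 fell by 1.31 on the log2 scale in NRASG12D against NUP98-NSD1 (SE 0.17, -1.70 to -0.92, adjusted p = 0.00150), with means of 3.43 ± 0.851 and 9.88 ± 1.15 FPKM (SD, n = 3). Of the 9 tested feedback genes it was the single one called lower there. Against NUP98-NSD1 the combined group gave -1.13 (-1.89 to -0.37, adjusted p = 0.0784), which passed with array weights (adjusted p = 0.0103), with all 9 libraries (adjusted p = 0.0327) and, at -1.47, without replicate 1 of the combined group (adjusted p = 0.0120), in a range from 0.0103 to 0.311 over 13 alternatives. Without replicate 2 of the combined group it was -0.85 (adjusted p = 0.134). For both groups with NRASG12D together the value was -1.22 (SE 0.26, -1.80 to -0.64, adjusted p = 0.0698), and over 15 alternatives the adjusted p ran from 0.00224 to 0.282. The combined group against NRASG12D gave 0.18 (-0.62 to 0.98, adjusted p = 0.695), and quantile normalization turned it to -0.07. The antisense gene AC137853.2 overlaps the start of Dusp5 and shares 20.5% of its 50-base stretches, and its highest level was 0.780 FPKM.

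Dusp6 encodes the cytoplasmic phosphatase of ERK and lies on chromosome 10 (ENSMUSG00000019960.8, 99263231 to 99267489, plus strand). Of the 10 genes it had the highest level per length in all 9 libraries. It had 67.0, 70.9 and 83.8 FPKM in NRASG12D, 39.8, 42.8 and 52.8 FPKM in NUP98-NSD1, and 24.8, 51.8 and 131 FPKM in the combined group. NRASG12D lay above NUP98-NSD1 in every library, and the combined group held both the lowest and the highest of the 9 values. Replicate 3, its highest, was also the library with the most Nras. In NUP98-NSD1 replicate 3 was highest in both genes, while in NRASG12D replicate 3 had the most Dusp6 and the least Nras. Dusp6 rose in NRASG12D against NUP98-NSD1 by 0.70 on the log2 scale (SE 0.13, 0.39 to 1.02, adjusted p = 0.00520), 1.64 times in mean FPKM, and with all 9 libraries the adjusted p was 0.282, the highest of 13 alternatives, of which 0.000438 was the lowest. The value was 0.30 (-0.98 to 1.58, adjusted p = 0.830) for the combined group against NUP98-NSD1 and -0.40 (-1.67 to 0.86, adjusted p = 0.574) against NRASG12D. Without replicate 3 of the combined group these became -0.31 and -1.01, and without its replicate 1 they became 0.87 and 0.16. Array weights gave 1.06 and 0.35. Intervals of this width allow a clear difference in either direction.

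Etv4 encodes a PEA3 factor and lies on chromosome 11 (ENSMUSG00000017724.14, 101769742 to 101785371, minus strand). It had 5.57, 8.74 and 5.00 FPKM in NRASG12D, 4.54, 7.83 and 12.0 FPKM in NUP98-NSD1, and 3.84, 8.43 and 26.2 FPKM in the combined group. All 3 groups overlapped, and replicate 3 of the combined group was the highest, as for Dusp6 and Spry2. The log2 fold changes were -0.24 (-1.01 to 0.52, adjusted p = 0.550) for NRASG12D against NUP98-NSD1, 0.32 (-1.18 to 1.82, adjusted p = 0.845) for the combined group against NUP98-NSD1, and 0.56 (-0.83 to 1.96, adjusted p = 0.470) against NRASG12D. The negative value turned to 0.02 with median-ratio scaling and 0.09 with quantile normalization. With array weights the last value was 1.33 (adjusted p = 0.0481, and 0.0481 to 0.835 over 13 alternatives).

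Etv5, the other PEA3 factor of the set, lies on chromosome 16 (ENSMUSG00000013089.15, 22381309 to 22439719, minus strand). It had 29.8, 31.3 and 35.9 FPKM in NRASG12D, 13.4, 17.6 and 21.4 FPKM in NUP98-NSD1, and 9.44, 21.8 and 17.2 FPKM in the combined group. NRASG12D stood above the other 6 libraries, which overlapped. Etv5 rose in NRASG12D against NUP98-NSD1 by 0.87 on the log2 scale (SE 0.17, 0.48 to 1.26, adjusted p = 0.00552), 1.85 times in mean FPKM, and with all 9 libraries the adjusted p was 0.0523, the highest of 13 alternatives, of which 0.000837 was the lowest. The combined group was lower than NRASG12D at -1.03 (SE 0.29, -1.71 to -0.34, adjusted p = 0.0303), with means of 16.2 ± 6.25 and 32.3 ± 3.17 FPKM (SD, n = 3). That call was lost with no filter (adjusted p = 0.122), without replicate 1, 2 or 3 of NRASG12D (adjusted p = 0.0758, 0.0824 and 0.107) and without replicate 3 of the combined group (adjusted p = 0.0578), in a range from 0.00758 to 0.122 over 13 alternatives. Against NUP98-NSD1 the value was -0.16 (-0.92 to 0.60, adjusted p = 0.849), and 0.05 with array weights. Etv5 shares 24.5% of its 50-base stretches with the processed pseudogene Gm4798 on chromosome 10, and how such reads were shared out was not stated.

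**Figure D2:**
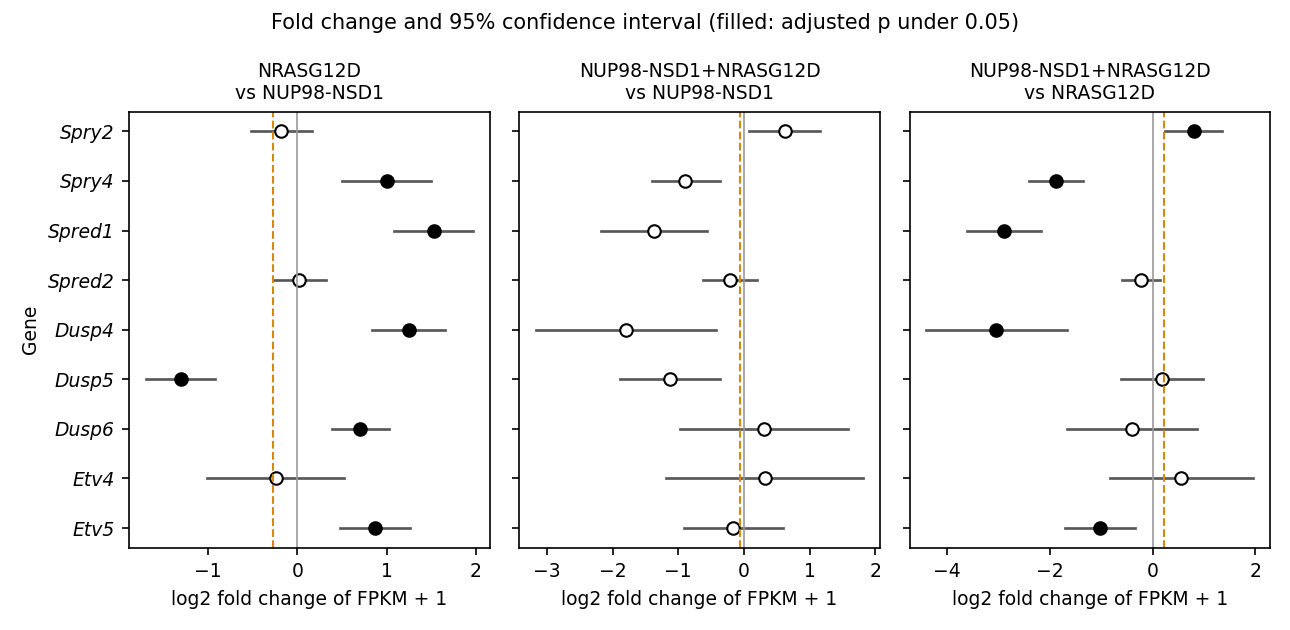
Log2 fold change of FPKM + 1 with its 95% confidence interval for the 9 tested feedback genes in the 3 pairwise comparisons, where filled points have an adjusted p under 0.05 and the dashed line marks the median of all genes tested. There are 6 filled points in the left panel, 0 in the middle panel and 5 in the right panel.

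The order of the group means differed from gene to gene. Spry4, Spred1 and Dusp4 stood highest in NRASG12D, then in NUP98-NSD1, then in the combined group, with no overlap at either step, while Spry1 ran in the reverse order with no overlap. Dusp5 was highest in NUP98-NSD1, Spry2 in the combined group, and Etv5 in NRASG12D, each clear of the other 6 libraries. Neighbouring means of Spred2 and Etv4 did not differ beyond the spread between libraries. For Dusp6 the mean of the combined group, 69.1 ± 55.0 FPKM (SD, n = 3), lay between those of NRASG12D and NUP98-NSD1, which did differ. Across the 9 libraries, which fall into 3 groups and so are not independent points, Pearson's r of log2(FPKM + 1) was 0.98 between Spred1 and Spry4, 0.96 between Dusp4 and Spred1, and 0.90 between Dusp4 and Spry4. With the stem cell factor receptor gene Kit, 1 of the 10 mast cell markers, r was 0.92 for Spry4, 0.92 for Spred1, 0.91 for Dusp4 and -0.91 for Spry2. It was 0.64 for Etv5, 0.56 for Spred2, 0.12 for Dusp5, -0.05 for Dusp6 and -0.46 for Etv4. Kit itself had 982, 1119 and 1049 FPKM in NRASG12D, 387, 382 and 561 FPKM in NUP98-NSD1, and 36.0, 70.7 and 8.27 FPKM in the combined group, and the part of mast cells in these levels was not tested. Of the other 9 markers of that list, 6 had the same order of group means and Mcpt4, Hdc and Cpa3 did not. Between NRASG12D and NUP98-NSD1, 5 of the 10 were called higher and 3 lower, the latter Mcpt4 (-2.68), Hdc (-4.31) and Cpa3, which was listed at 0 in NRASG12D.

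**Figure D3:**
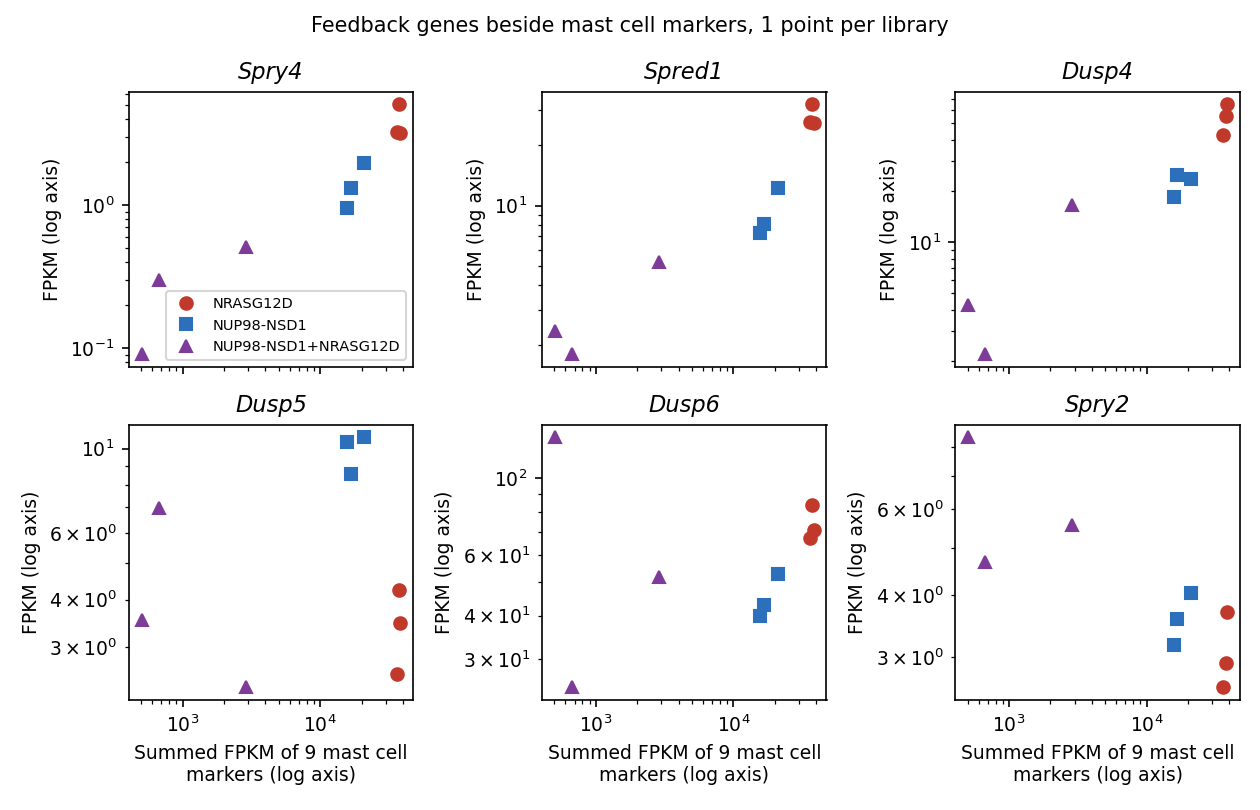
FPKM of Spry4, Spred1, Dusp4, Dusp5, Dusp6 and Spry2 against the summed FPKM of 9 mast cell markers without Cpa3, 1 point per library, both axes log. Spry4, Spred1 and Dusp4 are high where the markers sum to 36190 FPKM or more and low where they sum to 2892 FPKM or less, while Dusp5 is highest in the 3 libraries between.

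By the rule for the most alike genes, the 3 with the highest r over the 9 libraries among all genes tested are named for each feedback gene, as a description. For Spred1 they were Inpp5d (0.996), the gene of the lipid phosphatase SHIP1, Sec14l1 (0.994) and Dnase2b (0.994), and for Dusp4 they were Gm10557 (0.997), the mast cell and melanocyte factor gene Mitf (0.989) and the amino acid transporter gene Slc7a8 (0.988). Spry4 was closest to Nkpd1 (0.992), Espn (0.985) and the D cyclin gene Ccnd2 (0.984), and Spry2 to Derl3 (0.971), Galnt3 (0.969) and Phospho1 (0.968). Etv5 was closest to the ETS factor gene Elk1 (0.993), Ceacam16 (0.985) and Gm4798 (0.983), the last of which shares sequence with it. For Dusp6 they were the calcium-binding gene S100a6 (0.979), Myo1d (0.972) and Fam110c (0.964). For Dusp5 they were Mtbp (0.984), 4833445I07Rik (0.968) and Gnat2 (0.956). Etv4 was closest to Gm5492 (0.960), the EGF family ligand gene Hbegf (0.944) and Gm16372 (0.932), and Spred2 to Gm6263 (0.930), Ccny (0.926) and Sap130 (0.908).

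Of the 10 remaining genes of the same families, 9 were measured and 6 tested. Spry3 was not in the tables. In NRASG12D against NUP98-NSD1, 1 was called higher and 2 lower, with a median of -0.01. Dusp1, whose nuclear phosphatase acts on p38 and JNK as well as ERK, had 4.43, 6.72 and 5.27 FPKM in NRASG12D, 50.6, 37.6 and 34.0 FPKM in NUP98-NSD1, and 75.3, 70.4 and 27.2 FPKM in the combined group. The NRASG12D libraries were far below the other 6, which overlapped. Dusp1 was lower in NRASG12D than in NUP98-NSD1 at -2.68 (adjusted p = 0.000184), as was Dusp2 at -1.65 (adjusted p = 0.00128), while Dusp10 was higher at 0.48 (adjusted p = 0.0143), a call lost with all 9 libraries and without replicate 2 of NRASG12D. Of the 6, 2 were called higher in the combined group than in NRASG12D, Dusp1 at 3.06 (adjusted p = 0.00131) and Dusp7 at 1.03 (adjusted p = 0.00640), with a median of 0.68. Against NUP98-NSD1, 1 was called, Dusp7 at 0.96 (adjusted p = 0.0466), a call lost without each replicate of NUP98-NSD1 in turn and with median-ratio scaling, and the median was 0.33. Etv1, the third PEA3 gene, was not tested and had 0.254, 1.65 and 5.54 FPKM in the combined group against at most 0.145 FPKM in the other 6 libraries. For both groups with NRASG12D together limma called 0 of 6, with 3 at an unadjusted p under 0.05 and a median of 0.11.

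Of 21 genes of the cascade itself, from adaptors to RSK kinases, 20 were tested. In NRASG12D against NUP98-NSD1 2 were called higher and 3 lower, with a median of 0.02. Nras rose by 2.94 (adjusted p = 4.05e-05) and the scaffold gene Ksr1 by 0.82 (adjusted p = 0.00171), while the kinase gene Map2k1 (-0.78, adjusted p = 0.00560), which encodes MEK1, was among those lower. Map2k2, the gene of MEK2, was called lower at -0.29 (adjusted p = 0.0379) and turned to 0.02 and 0.03 with the scalings. The counts for the combined group against NUP98-NSD1 were 2 higher and 1 lower, with a median of 0.05. Nras rose by 2.81 (adjusted p = 0.0110), a call lost without replicate 3 of NUP98-NSD1, and Map2k1 by 1.08 (adjusted p = 0.0140), a call lost without replicate 2 or 3 of NUP98-NSD1. The adaptor gene Gab2 was lower at -1.13 (adjusted p = 0.0182), which was lost without each replicate of NUP98-NSD1 in turn. Map2k1 had 17.1, 23.7 and 19.3 FPKM in NRASG12D, 40.0, 35.3 and 29.9 FPKM in NUP98-NSD1, and 70.6, 70.9 and 84.0 FPKM in the combined group, with no overlap between the 3 groups. Between the combined group and NRASG12D 2 were higher in the former, among them Map2k1 at 1.86 (adjusted p = 0.000349), and 2 lower, Ksr1 at -1.40 (adjusted p = 0.00113) and Gab2 at -1.22 (adjusted p = 0.00318), with a median of -0.01. Nras itself gave -0.13 (-1.11 to 0.85, adjusted p = 0.819) there. With both groups together 1 was called, Nras at 2.88 (adjusted p = 0.00533), and the median was 0.04.

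Other genes often used as readouts of ERK output, 15 in all with 13 tested, moved in both directions. In NRASG12D against NUP98-NSD1 2 were called higher and 6 lower, with a median of -0.64. The cyclin D1 gene Ccnd1 rose by 2.78 (adjusted p = 0.00506) and Phlda1 by 1.08 (adjusted p = 0.00437), while the immediate early genes Fos (-4.06, adjusted p = 0.000176), Egr2 (-2.06, adjusted p = 0.00159) and Ier2 (-1.39, adjusted p = 0.000725) were lower. With a library left out the rise of Ccnd1 ran from 2.31 to 3.42. For the combined group against NUP98-NSD1 1 was higher, Ccnd1 at 3.14 (adjusted p = 0.00793), and 5 lower, among them Egr1 (-4.18, adjusted p = 0.00377), Egr3 (-3.21, adjusted p = 0.00556) and Ier2 (-2.86, adjusted p = 0.00542), with a median of -1.33. Egr1 had 324, 279 and 257 FPKM in NRASG12D, 496, 379 and 552 FPKM in NUP98-NSD1, and 17.0, 34.5 and 26.4 FPKM in the combined group. All 3 libraries of the combined group lay far below the other 6.

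Against NRASG12D, 3 readout genes were higher in the combined group and 5 lower, with a median of -0.34. Fos rose by 2.73 (adjusted p = 0.000623), and Egr1 (-3.46, adjusted p = 0.000181), Phlda1 (-2.63, adjusted p = 0.00167) and Ier3 (-2.29, adjusted p = 0.000842) were lower. Emp1 (2.24, adjusted p = 0.0303) and Mcl1 (0.79, adjusted p = 0.0162) were called higher, and both calls were lost with either scaling and without each replicate of NRASG12D in turn. Phlda1 had 64.9, 63.7 and 47.5 FPKM in NRASG12D, 27.4, 21.0 and 34.0 FPKM in NUP98-NSD1, and 4.40, 10.6 and 12.8 FPKM in the combined group, the same order without overlap as Spry4, Spred1 and Dusp4. With both groups together 1 was higher, Ccnd1 at 2.96 (adjusted p = 0.0269), and 5 lower, among them Fos (-2.70, adjusted p = 0.00386), Egr1 (-2.45, adjusted p = 0.00260) and Egr3 (-2.16, adjusted p = 0.00643), with a median of -0.63. The call of Ccnd1 was lost without replicate 3 of NRASG12D and without each replicate of NUP98-NSD1 in turn, and that of Egr3 without replicate 1 of NUP98-NSD1. Ccnd1 had 10.1, 50.1 and 32.9 FPKM in NRASG12D, 2.16, 3.85 and 2.85 FPKM in NUP98-NSD1, and 18.5, 40.8 and 48.4 FPKM in the combined group, so that all 6 libraries with NRASG12D were above the 3 without it. Fosl1, which encodes the AP-1 factor FRA1, had 4.50, 5.32 and 46.7 FPKM in the combined group, highest in replicate 3 as Dusp6 and Etv4 were.

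Promoter sequences from RefSeq, on GRCm38.p6 and from 250 bases before to 50 after the annotated start, were at hand for 7 of the 10 genes, and Etv5 had 2 entries. Spry4, Dusp4 and Etv4 had no entry. On both strands, 0 of the 7 held the ETS motif CCGGAAGT, the AP-1 motif TGANTCA, the cyclic AMP response element TGACGTCA or the E-box CACGTG, which 3.89%, 7.81%, 1.79% and 7.15% of all 32851 promoters in the table held. The GC box GGGCGG was in 5 of the 7 (Spry1, Spred1, Spred2, Dusp5 and Etv5) and in 35.7% of all promoters. The CArG box, the motif of serum response factor, was searched by name after the sequences had been seen, and it occurred in Dusp5, at -82 and -72 from the start, and in 1.63% of all promoters. A match describes letters in this window and not a site of binding.

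The promoters of Spred1 and Dusp5 are shown because these genes had the largest rise and the largest fall among the 9 tested feedback genes in NRASG12D against NUP98-NSD1. That of Spred1 is chr2:117120821-117121120 on the plus strand, with 72.3% G and C, and capitals mark its 3 GC boxes on either strand. This window ends before the gene start in GENCODE M21, 117121374, so the RefSeq start used here lies upstream of that start. The promoter of Dusp5 is chr19:53528895-53529194 on the plus strand, with 66.7% G and C, and capitals mark 1 GC box and 2 adjacent CArG boxes. The median of all promoters in the table was 52.7% G and C.
Spred1: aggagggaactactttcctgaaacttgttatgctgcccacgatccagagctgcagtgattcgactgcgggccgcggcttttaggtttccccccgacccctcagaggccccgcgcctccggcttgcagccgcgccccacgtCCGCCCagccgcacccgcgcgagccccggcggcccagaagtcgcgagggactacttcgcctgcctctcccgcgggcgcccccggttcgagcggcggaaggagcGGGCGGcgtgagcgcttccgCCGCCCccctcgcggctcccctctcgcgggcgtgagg
Dusp5: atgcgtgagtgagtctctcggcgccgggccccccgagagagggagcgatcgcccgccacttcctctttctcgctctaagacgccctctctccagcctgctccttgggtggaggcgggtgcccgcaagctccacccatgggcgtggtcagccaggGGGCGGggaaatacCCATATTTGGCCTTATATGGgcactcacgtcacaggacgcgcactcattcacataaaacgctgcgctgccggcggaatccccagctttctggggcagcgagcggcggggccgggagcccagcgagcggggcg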

How the data were processed

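The values are FPKM, deposited by the authors as 1 table per library. They were made with Cufflinks 2.2.1 from paired-end reads aligned with STAR 2.7.2a to GRCm38.p6, and how strands and multiply aligned reads were handled was not stated. FPKM are not counts, so a count model such as DESeq2 could not be run. The 13493 genes that reached 1 FPKM in 3 or more of the 9 libraries were tested with limma 3.58.1 in R 4.3.3, with a mean-variance trend, on log2(FPKM + 1). Each pairwise fit used the 6 libraries of its groups and the joint contrast all 9. P-values were adjusted with the Benjamini-Hochberg method over all genes tested, at 0.05. The pairwise procedure was tested on simulated data with equal spread in both groups, which leaves out the wider spread of the combined group. The joint contrast was not simulated. Tables were handled with Python 3.11.15 and pandas 2.3.3.

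Depth was estimated from the step between the lowest FPKM values of 3386 genes with a single transcript. Of the 771 to 1799 such low values per library, 84.6% to 87.2% fell within 0.15 of a whole step. Fragment counts at that depth cover counting error only. Alternatives were a pseudocount of 0.1, no filter, median-ratio scaling, quantile normalization, array weights, all 9 libraries in each fit, a replicate block and leaving out each library. The members and lists were chosen with earlier results of these data known. All members were named, and of each list up to 3 called genes per direction with the largest change in each comparison, the 3 genes most alike each tested member by Pearson's r, and Nras, Nup98 and Nsd1. Single values of some list genes are not reported here. Gene positions were those of GENCODE M21.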

Additional observations from a re-analysis of the deposited data

How the results depend on the processing

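Of 486 values of the feedback genes under the alternatives, 421 kept their direction and their side of the threshold, 17 kept the direction and missed the threshold, 19 kept the direction and newly passed it, and 29 changed sign. Calls of Spred1 and Dusp5 in NRASG12D against NUP98-NSD1, and of Spry4 and Spred1 in the combined group against NRASG12D, passed under all 13 alternatives. Of 111 calls of named list genes 60 passed under every alternative, 40 were lost with no filter, where 41853 genes were tested, and 37 with at least 1 library left out. Depth limits the precision of Spry1 in NRASG12D, at about 3.46, 4.78 and 8.07 fragments.

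The number of feedback genes called in NRASG12D against NUP98-NSD1 was 6, and 3 with all 9 libraries, with 6 to 6 when a library was left out. In the combined group against NUP98-NSD1 it was 0, with 5 by array weights, 4 with all 9 libraries and 0 to 2 with a library left out. It was 5 in the combined group against NRASG12D, with 3 under no filter and 3 to 5 with a library left out. For both groups together it was 0, with 3 by array weights and 0 to 2 with a library left out. The share of all genes tested that were called also moved. With all 9 libraries it went from 52.1% to 22.7% in the first comparison and from 8.61% to 16.7% in the second. In the second it was 25.9% by array weights, and 7.99% without replicate 2 of the combined group. In the third it went from 38.3% to 9.25% under no filter, and for both groups together from 1.11% to 46.5% by array weights. The cause was not tested. With replicate numbers as a replicate block the counts of feedback genes called were 6, 0, 5 and 0. The counts of all genes called were then 6864, 801, 4531 and 79. The replicate numbers are not stated to pair libraries, and correlations between same-numbered libraries of 2 groups lay between -0.177 and 0.16.

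All genes called numbered 7036 in NRASG12D against NUP98-NSD1, and 3065 with all 9 libraries, with 4736 to 7948 when a library was left out. For the combined group against NUP98-NSD1 they numbered 1162, with 169 under no filter, 3500 by array weights, 2251 with all 9 libraries, and 283 (without NUP98-NSD1 replicate 3) to 2509 (without replicate 1 of the combined group). For the combined group against NRASG12D they numbered 5173, with 2941 (without NRASG12D replicate 3) to 6327 (without replicate 2 of the combined group). For both groups together they numbered 150, with 45 under no filter, 67 with median-ratio scaling, 6268 by array weights, 79 with the replicate block, and 19 (without NUP98-NSD1 replicate 1) to 3637 (without replicate 1 of the combined group). The cause was not tested.

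Changes of sign in NRASG12D against NUP98-NSD1 were, with median-ratio scaling and quantile normalization, 0.05 and 0.17 for Spry2, 0.02 and 0.09 for Etv4, 0.02 and 0.03 for Map2k2, and 0.18 and 0.21 for Nsd1, the last also 0.05 by array weights. In the combined group against NUP98-NSD1 array weights gave 0.05 for Etv5 and 0.23 for Nsd1, which was 0.01 with median-ratio scaling. Against NRASG12D quantile normalization gave -0.07 for Dusp5, array weights gave 0.35 for Dusp6 and 0.40 for Nras, and the scalings gave -0.17 and -0.24 for Nsd1. For both groups together a pseudocount of 0.1 gave -0.31 for Spry4 and -0.01 for Spred1, the scalings gave 0.09 and 0.12 for Spred2 and 0.10 and 0.09 for Nsd1, and array weights gave 0.14 for Nsd1. None of the feedback genes among these was called without the alternative, and the cause was not tested.

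With a library left out, log2 fold changes that changed sign ran from -0.08 to 0.09 for Spred2 and from -0.56 to 0.05 for Etv4 in NRASG12D against NUP98-NSD1. They ran in the combined group against NUP98-NSD1 from -0.31 to 0.87 for Dusp6, -0.35 to 0.89 for Etv4, -0.40 to 0.16 for Etv5 and -0.27 to 0.09 for Nsd1. Against NRASG12D they ran from -0.16 to 0.46 for Dusp5, -1.01 to 0.16 for Dusp6, -0.11 to 1.14 for Etv4, -0.62 to 0.14 for Nras and -0.13 to 0.19 for Nsd1. For both groups together they ran from -0.09 to 0.22 for Spry4, -0.09 to 0.28 for Spred1, -0.30 to 0.34 for Etv4 and -0.27 to 0.00 for Nsd1.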

Other observations

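Brakes of RAS and ERK outside the feedback families, 13 genes of GTPase activating proteins and other inhibitors of which 10 were tested, were called in both directions. In NRASG12D against NUP98-NSD1 2 were higher and 3 lower, with a median log2 fold change of -0.01. Rasal3 (0.49, adjusted p = 0.00647) and Rasa3 (0.44, adjusted p = 0.00379) were higher, and the ubiquitin ligase gene Cbl (-1.13, adjusted p = 0.0122), Pebp1 (-1.09, adjusted p = 0.00129) and the neurofibromin gene Nf1 (-0.51, adjusted p = 0.0134) were lower. The call of Nf1 was lost with quantile normalization and without replicate 2 of NUP98-NSD1. Cbl had 2.08, 5.00 and 3.21 FPKM in NRASG12D, 9.98, 9.50 and 6.12 FPKM in NUP98-NSD1, and 16.1, 24.8 and 23.1 FPKM in the combined group, with no overlap between the 3 groups. Against NRASG12D, 4 were higher in the combined group and 3 lower, with a median of 0.21, among them Cbl at 2.36 (adjusted p = 0.00108) and Rasal3 at -1.31 (adjusted p = 0.00131). Against NUP98-NSD1 1 was higher and 1 lower, Cbl at 1.23 (adjusted p = 0.0298) and Rasal3 at -0.82 (adjusted p = 0.0277), with a median of 0.04, and both calls were lost without each replicate of NUP98-NSD1 in turn. With both groups with NRASG12D together limma called 0 of 10, with 1 at an unadjusted p under 0.05, and the median was 0.04.

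Of 14 ETS factor genes of blood cells outside the PEA3 group, all tested, 3 were called higher and 3 lower in NRASG12D against NUP98-NSD1, with a median of -0.21. The myeloid factor gene Spi1 was lower at -0.94 (adjusted p = 0.00745) and Elf2 at -0.73 (adjusted p = 0.00294), and Etv6 (-0.63, adjusted p = 0.0156) lost its call with both scalings. Elk4 (0.37), Elk1 (0.35) and Etv3 (0.33) were called higher, and each call was lost with all 9 libraries and without either of replicates 1 and 2 of NUP98-NSD1. Against NRASG12D, 3 were higher in the combined group and 4 lower, with a median of 0.03, among them Spi1 at 1.74 (adjusted p = 0.000248), Elk3 at 1.25 (adjusted p = 0.00291) and Elk4 at -1.11 (adjusted p = 0.00770). Against NUP98-NSD1 1 was higher, Elk3 at 0.88 (adjusted p = 0.0464), and 1 lower, Erg at -1.53 (adjusted p = 0.0484), with a median of -0.19, and both calls were lost without each replicate of NUP98-NSD1 in turn. With both groups with NRASG12D together limma called 0 of 14, with 2 at an unadjusted p under 0.05, and the median was -0.12.

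By limma on the marker lists, 5 of 10 mast cell markers were higher and 3 lower in NRASG12D than in NUP98-NSD1, 9 were lower in the combined group than in NUP98-NSD1, and 8 were lower and 2 higher in it than in NRASG12D. Cpa3, in doubt because it was listed at 0 in all 3 NRASG12D libraries, is among the 3 lower and among the 2 higher. Of the granulocyte and monocyte markers 10 of 10 were lower in NRASG12D than in NUP98-NSD1, and 4 were higher in the combined group than in NUP98-NSD1. Of the macrophage markers 6 of 6 were lower in NRASG12D than in NUP98-NSD1, and 0 were called between the combined group and NUP98-NSD1, with 2 at an unadjusted p under 0.05. Of the 12 markers of other cells 5 were tested, and 2 were higher and 3 lower in NRASG12D than in NUP98-NSD1.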
